A study of Arabidopsis thaliana with 9 samples.

Results

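The AT1G51890 cluster is a run of neighbouring leucine-rich repeat receptor kinase genes on chromosome 1 of Arabidopsis thaliana. Members were the probe sets whose single annotated gene was a locus code from AT1G51790 to AT1G51910. This gave 11 genes, each with 1 probe set, of 13350 genes with a singly named probe set. The RefSeq table lists 16 loci in the range, and 5 of them had no singly named probe set: IOS1, RHS6, AT1G51870, AT1G51823 and the pseudogene AT1G51802. They were not analysed here. AT1G51890 was selected on its difference between biotin-watered and water-grown bio4-1 in the samples numbered 2 and 3, where it was among the largest falls. Its values in that comparison are therefore a description, and so are those of its neighbours, which were followed because of it. The neighbours entered by position alone. The tables used here give no function for AT1G51900, which lies within the run.

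RNA from rosette leaves of Col-0 background plants aged 5 weeks was hybridised to Affymetrix ATH1 arrays, where several short probes together form the probe set of a transcript. The first group was the bio4-1 mutant watered weekly with 200 µM D-biotin, the second was bio4-1 given water only, and the last was wild type given water only. Both bio4-1 groups carry a T-DNA in the 5' untranslated region of BIO4, a biotin synthesis gene, so they represent a single allele. Biotin-watered wild type plants were not analysed here, nor was BIO4 itself, to which the annotation pairs no probe set. Each group had 3 samples, and each sample pooled leaves of 5 plants.

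Receptor kinases of this kind span the plasma membrane. Their outer part carries a malectin-like domain and leucine-rich repeats, and their inner part is a protein kinase. Several relatives are known from immunity to microbes: IOS1, a gene of the same run, supports signalling by receptors of microbial patterns, and FRK1, encoded elsewhere, is a widely used marker of the response to flagellin. Tandem copies of such receptors often differ in when and where they are transcribed.

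All values are log2 expression summaries as deposited, so a difference of 1 is a 2-fold change. The levels of different probe sets cannot be set against each other, and differences between groups within a probe set can. The samples numbered 1 stood apart in every group. Pairs with exactly 1 of them correlated at 0.95 to 0.972 across probe sets, against 0.987 to 0.997 for pairs among the other 6. Pairs of samples both numbered 1 ranged from 0.95 to 0.994, so these samples were not all alike. Deviations from the group means correlated at 0.83 between biotin-watered and wild type sample 1. For bio4-1 sample 1 they were 0.35 with biotin-watered and 0.22 with wild type sample 1. The actin control signal at the 3' end exceeded that at the 5' end by 2.39 in biotin-watered sample 1, 2.44 in bio4-1 sample 1 and 1.68 in wild type sample 1, against 1.38 to 1.53 in the other 6. Results are therefore given on all 9 samples and on samples 2 and 3 alone. The leaf genes RCA and PRK lay at 13.77 to 13.86 and 12.32 to 12.85 in all 9 samples. The 3 measured root markers of 8 lay between 3.21 and 4.41, and FMA, the measured guard cell marker of 6, between 5.79 and 6.76.

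AT1G51890, the kinase gene that gives the cluster its name, was high in water-grown bio4-1 and low in both other groups. Its values in biotin-watered bio4-1 were 4.17, 4.71 and 4.45 in samples 1, 2 and 3. In water-grown bio4-1 they were 9.73, 6.78 and 6.37, and in wild type 4.14, 4.59 and 3.96. Every water-grown mutant sample thus lay above every sample of the other groups, with the sample numbered 1 far above the rest.

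The first comparison asked which members differ between bio4-1 and wild type when both received water only. AT1G51890 averaged 7.63 ± 1.83 in bio4-1 and 4.23 ± 0.32 in wild type (SD, n = 3 each). The difference was 3.39 ± 0.77 (SE), a fold of 10.5, with a limma adjusted p of 0.333 on all 9 samples. In samples 2 and 3 it was 2.30 ± 0.23, a fold of 4.92. These bio4-1 samples are among those that singled the gene out, so that value is a description with no test. They are part of the 9-sample fit as well, so its fold and p are no independent test of this gene. On the samples numbered 1, bio4-1 was 5.59 above wild type. Those samples took no part in the choice. Without bio4-1 sample 1 the 9-sample difference was 2.34.

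**Figure D1:**
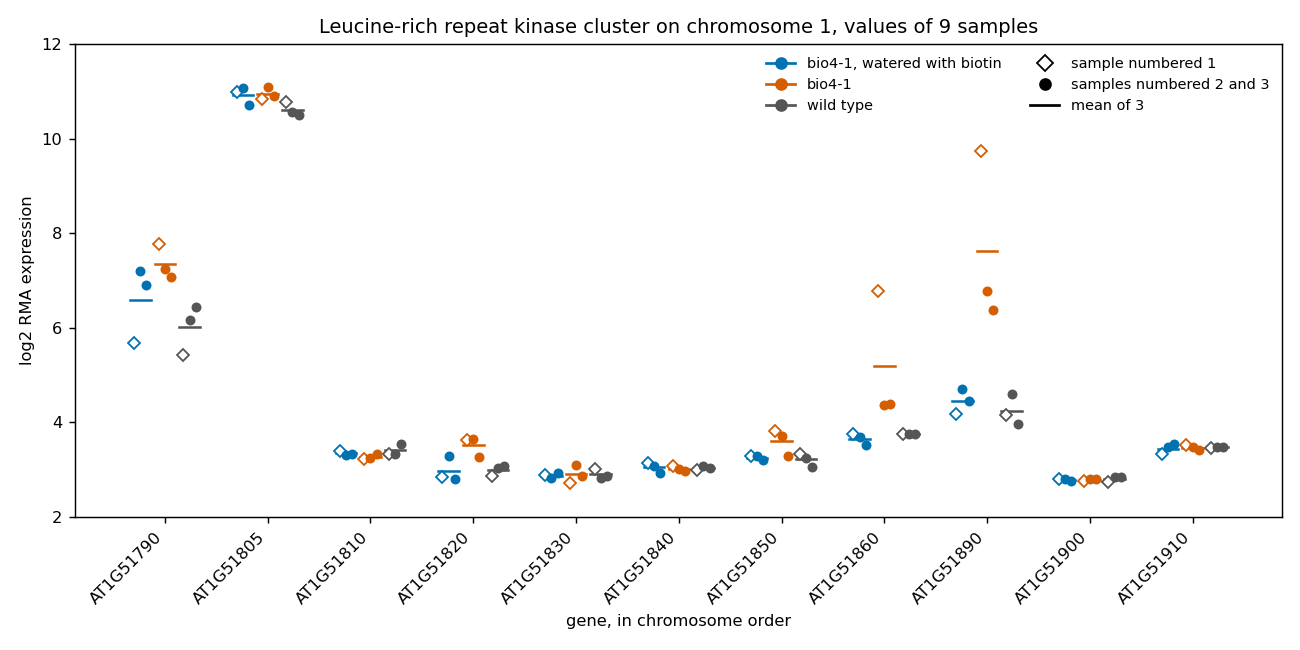
Log2 expression of the 11 genes in chromosome order, with biotin-watered bio4-1 on the left, bio4-1 in the middle and wild type on the right within each gene. Open diamonds are the samples numbered 1, filled circles are samples 2 and 3, and lines are means of 3; the 3 bio4-1 values of AT1G51890 lie between 6.37 and 9.73, above all its other values.

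AT1G51860, the first measured gene on the lower-numbered side of AT1G51890, was also highest in water-grown bio4-1, with smaller differences. Its values were 3.75, 3.69 and 3.51 in biotin-watered bio4-1. They were 6.78, 4.37 and 4.38 in water-grown bio4-1, against 3.74, 3.75 and 3.74 in wild type. The wild type samples hardly varied, and the water-grown mutant samples lay above all others. The bio4-1 minus wild type difference was 1.43 ± 0.58 (SE; limma adjusted p = 0.676) on 9 samples. AT1G51860 rose by 0.63 ± 0.10 on samples 2 and 3 (limma adjusted p = 0.0203), and on the samples numbered 1 the difference was 3.04. Without bio4-1 sample 1 the 9-sample difference was 0.63, so that sample decides its size. The call on samples 2 and 3 was lost without either bio4-1 sample or either wild type sample, with limma adjusted p from 0.119 to 0.219. AT1G51860 and AT1G51890 were the 2 members of 11 with every water-grown mutant sample above every other sample. This held for 2.41% of all probe sets tested, and nothing is read from the count, since the choice of AT1G51890 used these groups.

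AT1G51790, at the far end of the run from AT1G51890, was also above wild type in every water-grown mutant sample. It had 5.67, 7.19 and 6.90 in biotin-watered bio4-1. The values were 7.76, 7.23 and 7.07 in water-grown bio4-1 and 5.43, 6.16 and 6.43 in wild type. The difference from wild type was 1.35 ± 0.43 (SE; limma adjusted p = 0.514) on 9 samples and 2.32 on the samples numbered 1. AT1G51790 rose on samples 2 and 3 by 0.86 ± 0.14 (limma adjusted p = 0.0225). That call was lost when any 1 of these 6 samples was left out, with adjusted p from 0.0562 to 0.29.

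AT1G51805 was bright in every sample and differed little. Its values were 10.99, 11.06 and 10.70 in biotin-watered bio4-1, 10.84, 11.08 and 10.90 in water-grown bio4-1, and 10.78, 10.56 and 10.50 in wild type. The bio4-1 values lay above those of wild type without overlap, by 0.32 ± 0.13 (SE; limma adjusted p = 0.685). The difference was 0.46 ± 0.14 on samples 2 and 3 (adjusted p = 0.135).

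AT1G51820 and AT1G51850 were low on the array scale and slightly higher in the water-grown mutant. AT1G51820 had 2.84, 3.28 and 2.80 in biotin-watered bio4-1, 3.62, 3.64 and 3.27 in water-grown bio4-1, and 2.87, 3.03 and 3.07 in wild type. AT1G51850 had 3.29, 3.28 and 3.19 in biotin-watered bio4-1, 3.81, 3.70 and 3.29 in water-grown bio4-1, and 3.33, 3.23 and 3.06 in wild type. For AT1G51820 all 3 bio4-1 values lay above wild type, whereas those of AT1G51850 overlapped. The differences from wild type were 0.52 ± 0.16 and 0.40 ± 0.15 (SE), with limma adjusted p of 0.509 and 0.616, and neither passed on samples 2 and 3.

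The other 5 members stayed at the low end of the scale in every sample. AT1G51810 ranged from 3.21 to 3.53, AT1G51830 from 2.72 to 3.10, AT1G51840 from 2.92 to 3.14, AT1G51900 from 2.74 to 2.84 and AT1G51910 from 3.32 to 3.53. Their bio4-1 minus wild type differences ran from −0.13 ± 0.09 for AT1G51810 to −0.01 for AT1G51830, AT1G51840 and AT1G51910, with −0.02 for AT1G51900. The 95% interval of these differences reached from −0.34 at its lowest to 0.26 at its highest. AT1G51900 and AT1G51910, the neighbours of AT1G51890 on its other side, had overlapping values in all 3 groups.

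Counted over the cluster, no member passed the limma threshold on 9 samples, where 0.0308% of all probe sets did. At an unadjusted p under 0.05 there were 5 of the 10 members other than AT1G51890, all higher in bio4-1, against 7.06% of all probe sets in either direction. With AT1G51890, which was selected on some of these samples, it was 6 of 11. The bio4-1 samples lay above wild type without overlap for 4 of these 10 members and below it for none, against 6.12% and 6.95% of all probe sets. The median difference was 0.16 over the 10 members and 0.32 with AT1G51890, against −0.03 over all probe sets. Of the 10, 2 rose on samples 2 and 3 (AT1G51790 and AT1G51860) and none fell, against 2.38% and 1.6% of all probe sets. Without either biotin-watered sample the count was 1, AT1G51860, and without any 1 of the bio4-1 or wild type samples it was 0. A filter that kept probe sets with a mean of at least 6 held only AT1G51790 and AT1G51805, and one at the 30th percentile of all means held AT1G51860 and AT1G51890 as well.

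SAG101, a regulator of immunity and the measured gene of 5 senescence markers, had 6.18, 6.40 and 6.33 in biotin-watered bio4-1, 7.31, 6.34 and 6.33 in water-grown bio4-1 and 5.93, 5.92 and 5.55 in wild type. It was thus higher in both mutant groups than in wild type, highest in bio4-1 sample 1, and its part in the kinase values was not tested. TRY, a trichome regulator and the measured gene of 6 epidermis and trichome markers, had 6.94, 4.91 and 4.33 in biotin-watered bio4-1, 6.97, 5.81 and 5.76 in water-grown bio4-1 and 7.05, 6.53 and 6.39 in wild type. In samples 2 and 3 TRY was lower in biotin-watered bio4-1, by 1.17 against water-grown bio4-1 and by 1.84 against wild type (limma adjusted p of 0.0202 and 0.00309). Genotype and watering differ together in the comparison with wild type. The water-grown bio4-1 minus wild type difference of TRY was −0.68 ± 0.18 (SE). On 9 samples none of these passed (limma adjusted p of 0.957 to 1.0). Its part in the kinase values was not tested either. In pooled leaves, more cells that express a gene and more RNA per cell cannot be told apart.

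The second comparison asked how biotin watering changes the mutant. AT1G51890 averaged 4.44 ± 0.27 in biotin-watered and 7.63 ± 1.83 in water-grown bio4-1 (SD, n = 3 each). The difference was −3.18 ± 0.77 (SE) on 9 samples and −2.00 ± 0.23 on samples 2 and 3, the values that singled the gene out. On the samples numbered 1, which were not used for that, it was −5.56. The actin control difference was 2.39 in biotin-watered sample 1, 2.44 in bio4-1 sample 1 and 1.68 in wild type sample 1. AT1G51890 was 4.17, 9.73 and 4.14 in these samples. Whether the actin control difference has a part in the kinase values was not tested.

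Among its neighbours, AT1G51860 differed by −1.53 on 9 samples, −0.78 on samples 2 and 3 and −3.03 on the samples numbered 1. All its biotin-watered values lay below all water-grown mutant values. AT1G51820 and AT1G51850 differed by −0.54 and −0.35 on 9 samples, and by −0.41 and −0.26 on samples 2 and 3. AT1G51790 differed in size between the sample numbers. In samples 2 and 3 it differed by −0.10 ± 0.14 (SE), with biotin-watered values of 7.19 and 6.90 beside 7.23 and 7.07 in water-grown bio4-1. On the samples numbered 1 its difference was −2.09, at 5.67 against 7.76. AT1G51805 differed by −0.02 ± 0.13, and the 5 low members by −0.02 to 0.08.

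The biotin-watered samples lay below water-grown bio4-1 without overlap for 2 of the 11 members, AT1G51860 and AT1G51890, and 4.0% of all probe sets did so. No probe set of the whole table passed the limma threshold on 9 samples (0.0%), and 1033, or 4.54%, had an unadjusted p under 0.05. The limma threshold was passed downward on samples 2 and 3 by 2 members, AT1G51860 and AT1G51890, and by 1.86% of all probe sets. Nothing is read from these counts, since the comparison served to single out AT1G51890.

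The third comparison set biotin-watered bio4-1 against wild type, so genotype and watering differed together. AT1G51890 averaged 4.44 ± 0.27 in biotin-watered bio4-1 and 4.23 ± 0.32 in wild type, and the groups overlapped. The difference was 0.21 ± 0.77 (SE; limma adjusted p = 1.0), with a 95% interval from −1.58 to 2.00. On samples 2 and 3 the difference was 0.30 ± 0.23. These biotin-watered samples are among those that singled the gene out, so that value is a description with no test. The 9-sample fit holds them too. AT1G51860 differed by −0.10, with an interval from −1.43 to 1.23. The limits on 9 samples leave room for a difference of either sign.

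AT1G51790 was the member that passed the limma threshold in biotin-watered bio4-1 against wild type on samples 2 and 3. It was higher by 0.75 ± 0.14 (SE; limma adjusted p = 0.0275) there, close to the 0.86 of water-grown bio4-1. These comparisons share the wild type samples. On 9 samples the difference was 0.58 ± 0.43 (adjusted p = 1.0), and on the samples numbered 1 it was 0.23. The call was lost without any 1 of the 6 samples, with limma adjusted p from 0.0818 to 0.208. AT1G51805 was higher by 0.30 ± 0.13 on 9 samples and by 0.35 ± 0.14 on samples 2 and 3 (adjusted p of 1.0 and 0.274). On 9 samples no member passed the limma threshold, against 0.0044% of all probe sets, and none had an unadjusted p under 0.05, against 2.48%. With limma, 1 member was higher on samples 2 and 3, against 2.66%.

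**Figure D2:**
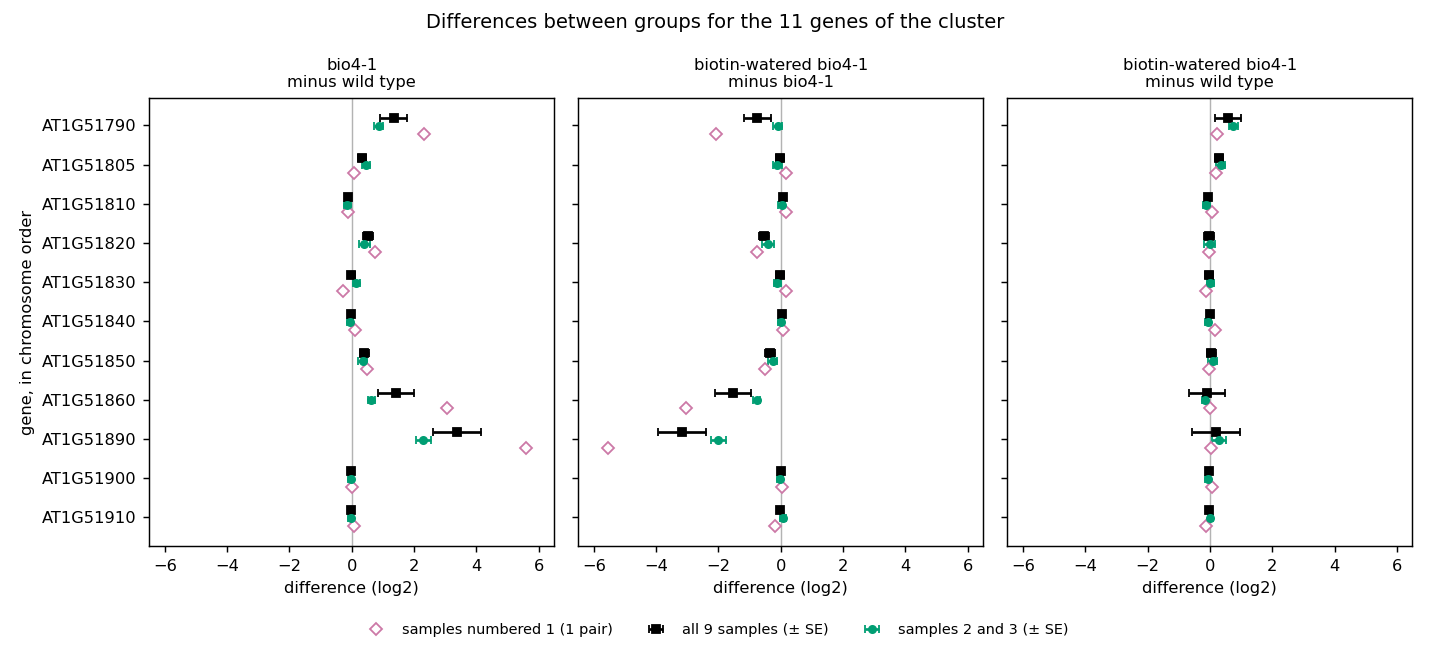
Differences on the log2 scale for the 11 genes in chromosome order, 1 panel per comparison. Squares are all 9 samples and circles are samples 2 and 3, each with ± SE, and open diamonds are the single pair of samples numbered 1. AT1G51890 has the widest differences, 3.39 in bio4-1 minus wild type and −3.18 in biotin-watered minus water-grown bio4-1 on 9 samples.

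The members varied to different degrees across the 9 samples. AT1G51890 spanned 5.77 and AT1G51860 spanned 3.27, AT1G51790 spanned 2.32, and AT1G51900 spanned 0.10 on the log2 scale. Pearson correlations with AT1G51890 over the 9 samples were 0.96 for AT1G51860, 0.88 for AT1G51850, 0.83 for AT1G51820 and 0.75 for AT1G51790. They were −0.30 to 0.31 for AT1G51805, AT1G51830, AT1G51840, AT1G51900 and AT1G51910, and −0.71 for AT1G51810. These values follow the split between the water-grown mutant and the other groups and the height of bio4-1 sample 1, so they are descriptions. On samples 2 and 3 alone, 6 in number, the correlations were 0.93 for AT1G51860, 0.85 for AT1G51850, 0.79 for AT1G51820 and 0.63 for AT1G51790. Others moved further: AT1G51805 had 0.71, AT1G51830 0.65, AT1G51840 −0.20, AT1G51900 −0.21, AT1G51910 −0.55 and AT1G51810 −0.65 there.

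Genes elsewhere followed AT1G51890 more closely than its neighbours did. The 8 genes with the highest correlation over 9 samples, of 13349 ranked, were AT2G21850, AT1G72240, AT1G26390, OSM34, AT1G26380, AT2G27660, AT5G42440 and AT1G26420, at 0.992 to 0.985. AT1G51860 came at rank 35. On samples 2 and 3 alone the same 8 genes had correlations of 0.964 to 0.996, and 1 of them, AT1G72240, was again among the first 8.

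AT1G26390, of the berberine bridge oxidase family, had 3.27, 4.12 and 3.42 in biotin-watered bio4-1, 9.70, 5.63 and 5.51 in water-grown bio4-1, and 3.27, 4.12 and 3.50 in wild type. OSM34, an osmotin of the defence proteins, had 3.10, 3.69 and 3.48 in biotin-watered bio4-1, 6.53, 4.73 and 4.83 in water-grown bio4-1, and 3.03, 3.57 and 3.45 in wild type. In both genes the water-grown bio4-1 samples lay above all others, with bio4-1 sample 1 highest.

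**Figure D3:**
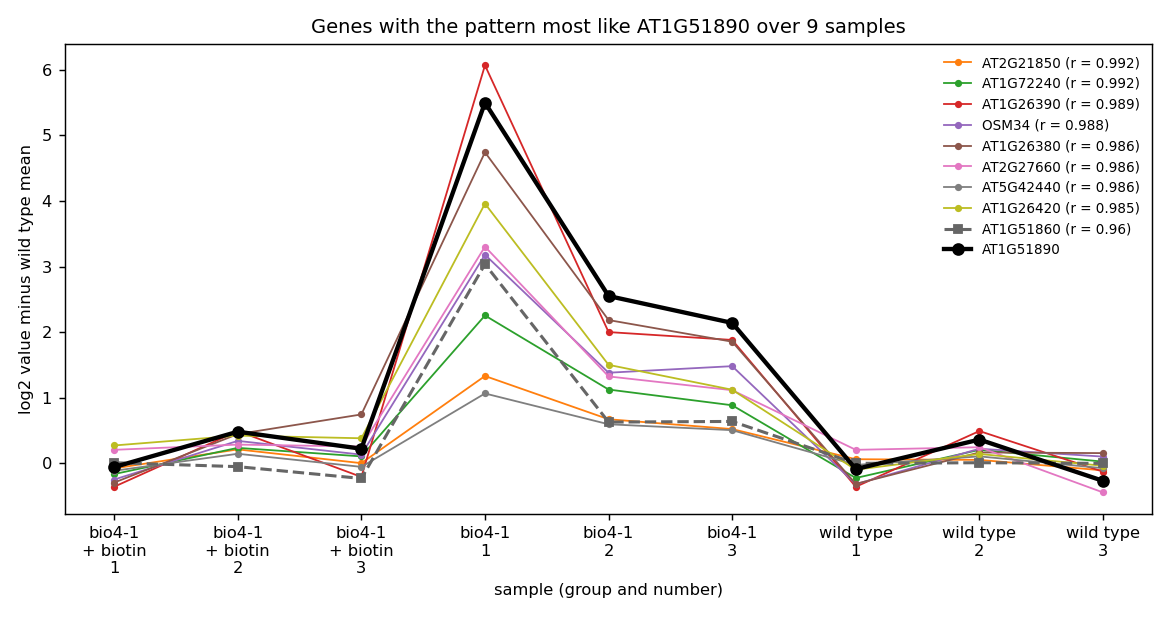
Log2 value minus the wild type mean in each of the 9 samples for AT1G51890, its neighbour AT1G51860 and the 8 genes with the highest Pearson r with AT1G51890 over these samples. All lines peak in bio4-1 sample 1, where AT1G51890 had 9.73 and AT1G26390 had 9.70, and lie lower in bio4-1 samples 2 and 3.

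Related receptor kinases of the same subfamily at other loci gave a wider view of the family. Of 31 written down, 24 had a named probe set, and FRK1 was not among them. None passed the limma threshold in bio4-1 against wild type on 9 samples, and the median difference was 0.01. In samples 2 and 3, 2 rose and none fell, against 2.38% and 1.6% of all probe sets, and the median was −0.04. The groups did not overlap on 9 samples for 3 of 24 upward and 1 of 24 downward, against 6.12% and 6.95% of all probe sets.

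AT5G59670 and AT5G59680, neighbouring kinase genes on chromosome 5, were those that rose. AT5G59670 had 8.53, 7.88 and 8.08 in biotin-watered bio4-1, 9.70, 8.56 and 8.81 in water-grown bio4-1, and 7.70, 7.71 and 7.15 in wild type. Its difference from wild type was 1.25 ± 0.19 (SE) on samples 2 and 3 and 1.50 ± 0.32 on 9 samples, with limma adjusted p of 0.0177 and 0.278. AT5G59680 had 6.61, 7.49 and 7.29 in biotin-watered bio4-1, 7.43, 7.63 and 7.21 in water-grown bio4-1 and 6.16, 6.42 and 6.63 in wild type. It rose by 0.90 ± 0.16 (limma adjusted p = 0.0278) on samples 2 and 3, and stayed 0.86 above wild type with biotin (adjusted p = 0.0256). Its difference between the 2 mutant groups on samples 2 and 3 was −0.04 ± 0.16. The bio4-1 minus wild type calls of both genes were lost when any 1 of the 6 samples was left out (limma adjusted p from 0.0603 to 0.259). The biotin-watered call of AT5G59680 was lost without either biotin-watered or either wild type sample (0.12 to 0.222). Of the other 2 named by size, AT3G46370 was 0.70 lower in bio4-1 on 9 samples (adjusted p = 0.514) and AT5G59660 was 0.21 higher (0.956).

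The receptors and signalling kinases of the response to microbial patterns were thinly covered by named probe sets. EFR, the receptor of a bacterial elongation factor, was the measured gene of 12 receptors and co-receptors. It had 5.75, 5.59 and 5.57 in biotin-watered bio4-1, 6.25, 5.71 and 5.68 in water-grown bio4-1, and 5.37, 5.40 and 4.98 in wild type. The bio4-1 minus wild type difference was 0.63 ± 0.18 (SE; limma adjusted p = 0.464), without overlap.

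Of 19 signalling genes 3 were measured. BIK1, a cytoplasmic kinase that pattern receptors phosphorylate, had 6.96, 7.16 and 6.98 in biotin-watered bio4-1, 8.52, 7.64 and 7.80 in water-grown bio4-1, and 6.87, 7.08 and 7.02 in wild type. BIK1 rose on samples 2 and 3 by 0.67 ± 0.11 in bio4-1 (limma adjusted p = 0.0225) and was lower by 0.65 with biotin (adjusted p = 0.028). AT3G09830, another cytoplasmic kinase gene, rose by 0.92 ± 0.17 in bio4-1 there (limma adjusted p = 0.0292), and AT5G03320 was 0.40 higher. The calls of BIK1 and AT3G09830 in bio4-1 against wild type were lost when any 1 of the 6 samples was left out (limma adjusted p from 0.0544 to 0.284), and so was that of BIK1 with biotin (0.07 to 0.199). On 9 samples none of the 3 passed, with a median of 0.92.

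Of 23 genes known to respond to microbial patterns, 7 were measured. Of these 7, 4 (AT4G12500, AT2G17740, AT1G26390 and WRKY53) already stood out in earlier results of these data. AT4G12500 and AT2G17740 rose in bio4-1 on 9 samples, by 3.54 ± 0.37 and 2.58 ± 0.23 (SE; limma adjusted p of 0.0381 and 0.0217). AT4G12500 lost its call when either biotin-watered sample 2 or 3, or any bio4-1 or wild type sample, was left out, with limma adjusted p from 0.0697 to 0.261, and for AT2G17740 this was 0.051 to 0.198. In samples 2 and 3, 5 of 7 rose, against 2.38% of all probe sets, AT1G26390 by 1.76 and AT1G26380 by 1.86 (limma adjusted p of 0.0168 and 0.00298). Both calls were lost without bio4-1 sample 2 or either wild type sample, and that of AT1G26390 also without bio4-1 sample 3. Since these genes were in part known to stand out, the counts are no independent evidence of a direction.

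**Figure D4:**
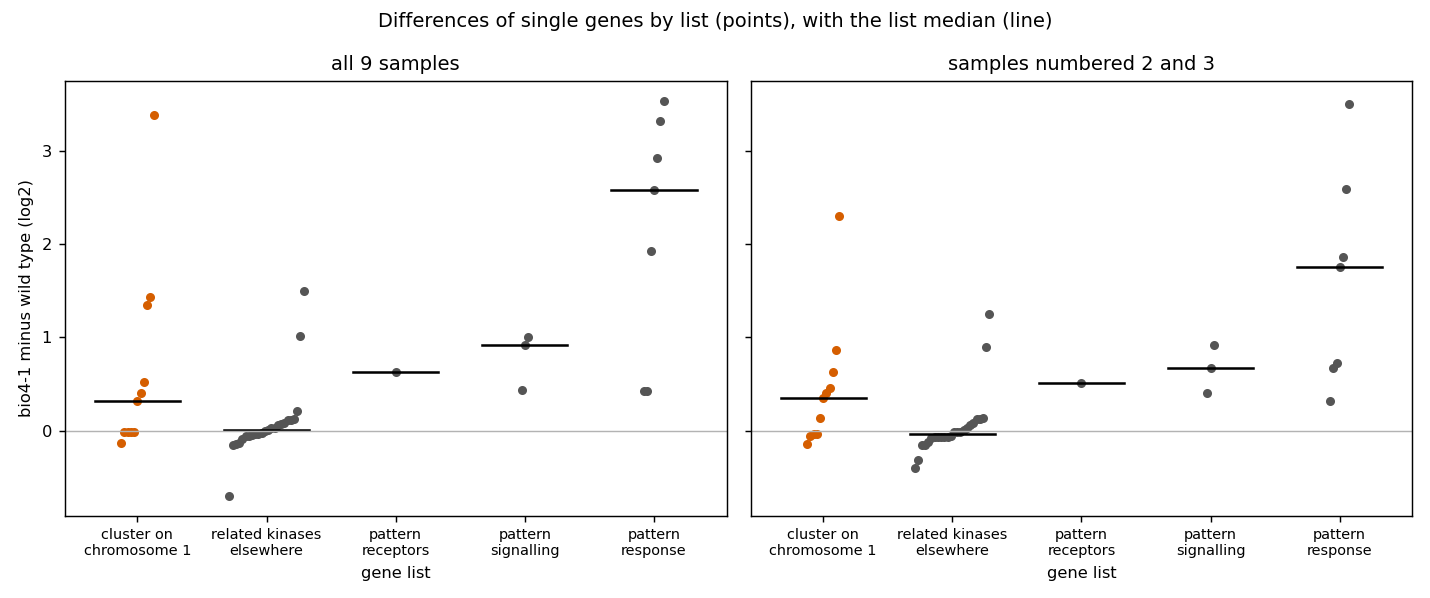
Difference between bio4-1 and wild type (log2) for the 11 genes of the cluster, 24 related kinases elsewhere, 1 pattern receptor, 3 signalling kinases and 7 response genes, on all 9 samples (left) and on samples 2 and 3 (right). Each point is a gene and each line a list median, which on 9 samples is 0.32 for the cluster (0.16 without AT1G51890), 0.01 for the related kinases and 2.58 for the response genes, of which 4 were known to stand out.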

How the data were processed

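The authors deposited log2 values made with RMA, a method that summarises the probes of each set, per the submitters' processing notes; a version is not stated there. Sample medians ran from 5.95 to 6.07. Of 22810 probe sets, 64 controls were left out and 22746 tested; the annotation named 1 gene for 13513, several for 503 and none for 8730. A gene with several probe sets was taken at the one with the highest mean. Gene order and current names came from RefSeq TAIR10.1. Groups were compared with limma 3.58.1 in R 4.3.3 on all 9 samples in 1 fit with no block, p-values were adjusted by Benjamini-Hochberg across every tested probe set, and the threshold was 0.05. The fit was tested on simulated data with independent noise, scaled down from the spread of samples 2 and 3. The simulation held no shift of the samples numbered 1, so it does not show how the fit behaves with one. Deviations from the group means of same-numbered samples correlated at 0.27 to 0.35 between biotin-watered and water-grown bio4-1. Between biotin-watered bio4-1 and wild type they correlated at 0.61 to 0.83. Biotin-watered sample 2 had 0.27 with bio4-1 sample 2 and 0.36 with bio4-1 sample 3. With wild type samples 2 and 3 it had 0.61 and 0.65. Biotin-watered sample 3 had 0.32 with bio4-1 sample 3 and 0.17 with bio4-1 sample 2. With wild type samples 3 and 2 it had 0.75 and 0.65. The labels do not pair the samples by number. These correlations cannot decide whether samples 2 and 3 are paired, since sample 1 enters every group mean. Differently numbered samples ranged from −0.79 to 0.65. Other settings were samples 2 and 3 alone, those numbered 1 as a term, a replicate block, 2-group fits, other normalisations, dim-probe filters, array weights and leaving out each sample; leaving samples out within samples 2 and 3 was added after seeing the data. The labels call each sample a pool of plants, so p-values on 9 samples measure the spread between 3 pools per group. Those on samples 2 and 3 rest on 2 pools per group. Besides the members, the text names the 8 genes most correlated with AT1G51890 and, per gene list, the 4 with the largest bio4-1 minus wild type difference. Members and lists were chosen with earlier results of these data known. Probe sequences were not used here, and signal shared between tandem copies was not tested. Tables and plots used Python 3.11.15, pandas 2.3.3 and matplotlib 3.10.9.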

Additional observations from a re-analysis of the deposited data

How the results depend on the processing

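Over the 9-sample fit, no member of the cluster passed the limma threshold in any comparison. In bio4-1 against wild type the count was 3 on samples 2 and 3 alone, 2 with array weights and 0 with any 1 of the 9 samples left out. The 3 include AT1G51890, which was selected on some of these samples. In biotin-watered against water-grown bio4-1 the count was 2 on samples 2 and 3, 1 with array weights and 0 with any 1 of the 9 samples left out. AT1G51890, which this comparison singled out, is among the 2. In biotin-watered bio4-1 against wild type it was 1 on samples 2 and 3 and 2 with array weights. Array weights gave the samples numbered 1 the weights 0.19 to 0.25. Of the 35 list genes, 2 passed in bio4-1 against wild type, and 9 did on samples 2 and 3, 8 with array weights, 1 with a replicate block, 1 with only the 2 groups, 0 with a mean of at least 6, and 0 to 4 with 1 sample left out. In biotin-watered against water-grown bio4-1 none passed, but 6 did on samples 2 and 3, 2 with the samples numbered 1 as a term and 7 with array weights. With 1 of the 9 samples left out 0 to 1 passed. The 2 called with the samples numbered 1 as a term fell, as did 10 of all 22746 probe sets. In biotin-watered bio4-1 against wild type none passed, but 3 did on samples 2 and 3, 9 with array weights and 0 with any 1 of the 9 samples left out. The share of all probe sets called was not counted with array weights, the block, 2-group fits, filters or samples left out. Nothing is therefore read from the counts under those settings. With the replicate block 0 cluster members passed in each comparison. In bio4-1 against wild type, AT4G12500 lost its call under the block (limma adjusted p = 0.0588). Same-numbered samples of these groups correlated at 0.22, −0.03 and 0.36, and the labels do not pair them. The block changed no other call. Differences near 0 changed direction. For biotin-watered bio4-1 minus wild type, AT1G51820 was 0.0 with median centring and 0.18 with array weights, AT1G51830 0.02, AT1G51840 −0.05 and AT1G51910 0.02 on samples 2 and 3, AT1G51840 −0.0 and AT1G26390 0.04 with array weights, and AT5G59660 0.02 with median centring. For bio4-1 minus wild type, AT1G51830 was 0.14 on samples 2 and 3, 0.01 with quantile normalisation and 0.13 with array weights, and quantile normalisation gave 0.0 for AT1G51840 and 0.02 for AT1G51910. AT5G59680 was 0.02 with array weights in biotin-watered minus water-grown bio4-1. With 1 sample left out, biotin-watered bio4-1 minus wild type ran from −0.21 to 0.01 for AT1G51810, −0.25 to 0.23 for AT1G51820, −0.07 to 0.08 for AT1G51830, −0.12 to 0.09 for AT1G51840, −0.02 to 0.17 for AT1G51850, −0.01 to 0.62 for AT1G51890, −0.07 to 0.05 for AT1G51910, −0.2 to 0.15 for AT5G59660, −0.07 to 0.11 for BIK1 and −0.39 to 0.31 for AT1G26390. Likewise bio4-1 minus wild type ran from −0.11 to 0.25 for AT1G51830, −0.08 to 0.02 for AT1G51840, −0.08 to 0.03 for AT1G51910 and −0.03 to 0.38 for AT5G59660. Biotin-watered minus water-grown bio4-1 ran from −0.48 to 0.17 for AT5G59680, −0.01 to 0.51 for AT3G46370, −0.41 to 0.02 for AT5G59660 and −0.51 to 0.01 for AT3G09830. The cause of these changes was not tested. The differences of AT1G51890 and AT1G51860 between bio4-1 and wild type stayed above 0 in every setting run, from 1.98 to 4.02 and from 0.62 to 1.84. Samples that singled out AT1G51890 are part of these settings, so its range is a description and no check of its direction. The low probe sets sit near the floor of the array scale, where the signal may not show small differences in RNA. This was not tested, so their small differences are read neither as a change nor as none.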
